A study of Homo sapiens with 6 samples.

Results

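The genes described here are 39 human genes of fatty-acid synthesis, fatty-acid oxidation and lipid droplets, taken by gene symbol from the 60691 genes of one RNA-seq count table. All 39 were found and all 39 had enough reads to be tested, as had 16591 genes of the whole table. RNA was measured in SW1353, an established human chondrosarcoma cell line, that is, a line grown from a malignant tumour of cartilage. All 6 samples were transduced by lentivirus and kept in 3% oxygen for 48 h after seeding. The 3 samples called shfirefly here carried a hairpin against firefly luciferase, a gene that human cells do not have, and the 3 called shSIRT1 carried a hairpin labelled SIRT1, a deacetylase that consumes NAD+. The stated question was how SIRT1 relates to transcription by HIF-2α and to chondrosarcoma malignancy. The labels describe 3 biological replicates in each group, and they do not say how many clones, hairpins or infections these stand for. One protocol label names EPAS1, the gene of HIF-2α, as the hairpin's target where the titles, treatment labels and design text name SIRT1.

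Cells build fatty acids in the cytosol from citrate, by way of acetyl-CoA and malonyl-CoA, and then lengthen and desaturate them in the endoplasmic reticulum. Fatty acids are activated to acyl-CoA and are either burned in mitochondria, which they enter through the carnitine shuttle, or esterified into triglyceride and kept in lipid droplets. Desaturases and mitochondrial oxidation need oxygen, many cells store more lipid when oxygen is low, and several lipid droplet genes are known targets of hypoxia-inducible factors.

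Total counts were 28556696 to 32044191 in the shfirefly libraries and 24993064 to 29564361 in the shSIRT1 libraries. SIRT1 (chromosome 10) was at 26, 24.8 and 24 CPM in the shfirefly libraries and at 12.9, 13.2 and 14.7 CPM in the shSIRT1 libraries, where CPM is the count divided by the TMM-scaled library size, on the usual scale of 1e6. SIRT1 fell in the library set labelled for it, with a log2 fold change of -0.88 ± 0.07 (SE, edgeR quasi-likelihood test, Benjamini-Hochberg adjusted p = 2.3e-09). EPAS1 (chromosome 2) was at 477, 483 and 409 CPM and then at 245, 226 and 228 CPM, and it fell as well (log2 fold change -0.97 ± 0.06, adjusted p = 5.8e-07). Both genes named as a target were therefore lower, and which of them the hairpin matches cannot be told apart from these counts. Of the 9 cartilage markers 3 were tested, and they moved apart: SOX9 rose from 43.7 ± 2.54 to 53.1 ± 1.18 CPM (log2 fold change 0.28, adjusted p = 0.0001) and MATN3 from 3.78 ± 0.254 to 4.81 ± 0.330 CPM (0.35, adjusted p = 0.032), while ACAN fell from 1.51 ± 0.270 to 0.679 ± 0.194 CPM (-1.16, adjusted p = 0.0018). COL9A1 was at 0 in every library, and 5 other cartilage markers were too low to be tested. The fat cell markers ADIPOQ, LEP and FABP4 had at most 1 read per library, and the summed level of the 7 fat cell markers was 1.07 to 1.60 CPM in shfirefly and 1.15 to 1.30 CPM in shSIRT1. The 4 macrophage markers summed to 12.8 to 14.5 CPM in shfirefly and 6.19 to 8.44 CPM in shSIRT1, nearly all of it CSF1R, with PTPRC, CD68 and CD14 near 0. The 4 epithelial markers summed to 308.3 to 319 and 356 to 372 CPM, mostly KRT18, the 3 endothelial markers to 1.15 to 2.07 and 1.08 to 1.37 CPM, and the 4 liver markers to at most 0.115 CPM. All samples are labelled as the same cell line, and whether the CSF1R and KRT18 reads came from all of its cells was not tested. In bulk RNA, fewer cells of a type and less RNA per cell cannot be told apart.

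Fatty-acid genes moved in both directions in the shSIRT1 libraries. Under TMM scaling the 2 directions were even, a balance that depends on the scaling. A gene is said to rise or fall where its Benjamini-Hochberg adjusted p over all genes tested is under 0.05. By that rule 12 members rose and 12 fell, and 15 did not pass the test. The 24 changed members are 61.5% of the 39, beside 52.8% of all genes tested. By direction, 30.8% of members rose and 30.8% fell, beside 26.8% and 26% of all genes tested. These shares lie near the background, and the median log2 fold change of the members was -0.01 against 0.01 for all genes tested. Scaling to library totals alone moved the median of all genes to 0.13 and gave 19 members higher and 8 lower, and 6225 genes higher and 3021 lower in place of 4449 and 4311.

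All 3 libraries of one group lay above all 3 of the other for 28 members (71.8%), beside 59.7% of all genes tested. A change of at least 1.5-fold that passed the test was found for 7 members (17.9%), beside 16.8% of all genes tested. Of these 7, FASN, ELOVL6 and PPARGC1B rose, and SCD, ACADVL, PLIN2 and HILPDA fell. The plot of fold changes by role shows that 4 of the 7 roles held members that rose beside members that fell.

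**Figure D1:**
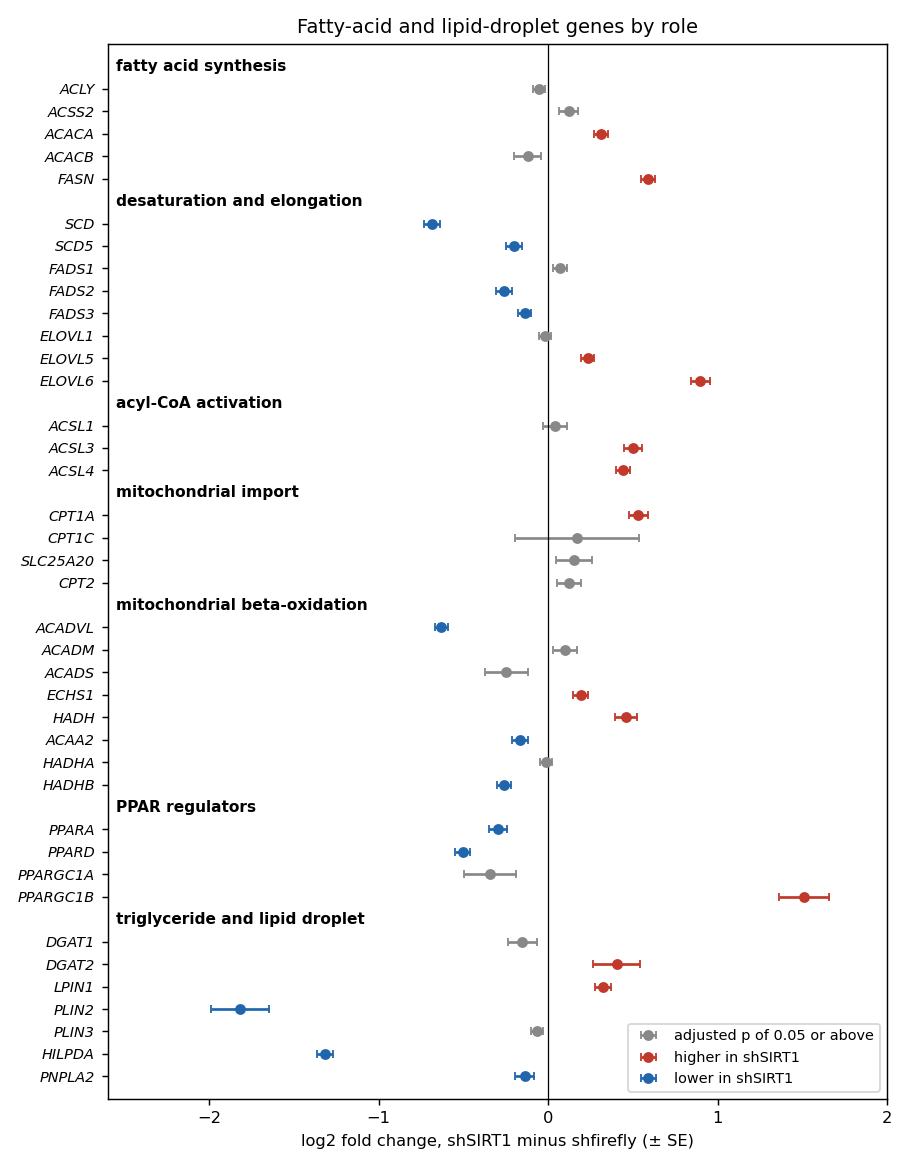
Log2 fold change of each of the 39 members, shSIRT1 over shfirefly, grouped by role, with bars of ± SE from edgeR's quasi-likelihood fit (n = 3 per group) and colour for genes that rose (red) or fell (blue). PPARGC1B stands at 1.51 and PLIN2 at -1.82, the 2 ends of the range.

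Sequence before a RefSeq start is shown for 4 of the 7 members with a change of at least 1.5-fold, 2 that rose (ELOVL6 and PPARGC1B) and 2 that fell (PLIN2 and SCD). All 4 windows held the motif marked for them, so they do not stand for members in general. ACADVL is not shown, and FASN and HILPDA had no RefSeq window. The window searched was the 250 bases before the first start that RefSeq's table lists for the gene on GRCh38.p14. That start lies inside the gene as GENCODE 29 draws it, by 109 bases for SCD, 584 for ELOVL6, 21798 for PLIN2 and 41642 for PPARGC1B. The distance is from the outermost edge of the gene, and which start these cells use was not tested. The letters are printed 5′ to 3′ on the strand of the gene, for the longest stretch of the window that is free of GENCODE 29 exons. The motifs marked, matched on either strand, were the core of a hypoxia response element (ACGTG or GCGTG) and a sterol response element (TCACNCCAC). Capitals mark the hypoxia core in PLIN2, SCD and ELOVL6 and the sterol element in PPARGC1B, where they fall in the letters printed. Only that motif was marked in each window, so small letters say nothing about the other. The PLIN2 window held the hypoxia core at positions -120, -85, -69 and -68 from that start, of which the first, and the opening base of the next, are in the stretch printed (chr9:19127577-19127742, minus strand). Its last pair is the E-box CACGTG, which holds ACGTG on both strands. The SCD window held the core at -20 and the ELOVL6 window at -10, both nearer the RefSeq start than the stretches printed (chr10:100346983-100347123, plus strand, and chr4:110198677-110198841, minus strand). The PPARGC1B window held the sterol element at -133 from its RefSeq start (chr5:149771690-149771939, plus strand).
PLIN2: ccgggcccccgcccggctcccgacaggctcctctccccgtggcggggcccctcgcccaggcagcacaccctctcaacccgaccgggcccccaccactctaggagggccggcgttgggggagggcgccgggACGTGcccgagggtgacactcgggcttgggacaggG
SCD: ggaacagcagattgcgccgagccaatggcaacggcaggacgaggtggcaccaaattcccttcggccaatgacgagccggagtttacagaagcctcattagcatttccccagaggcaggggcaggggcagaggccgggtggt
ELOVL6: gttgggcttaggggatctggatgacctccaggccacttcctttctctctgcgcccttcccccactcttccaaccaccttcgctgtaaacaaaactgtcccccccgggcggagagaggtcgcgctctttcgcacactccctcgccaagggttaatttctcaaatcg
PPARGC1B: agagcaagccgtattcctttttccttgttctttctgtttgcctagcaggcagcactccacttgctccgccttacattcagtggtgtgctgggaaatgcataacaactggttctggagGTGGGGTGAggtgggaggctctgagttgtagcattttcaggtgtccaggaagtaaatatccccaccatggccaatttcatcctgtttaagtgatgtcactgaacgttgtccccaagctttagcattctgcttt

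Such short motifs are common. A RefSeq window was found for 35 of the 39 members, and 27305 genes had one in all. FASN, HILPDA, DGAT1 and DGAT2 had none, so the shares of members leave them out. The hypoxia core was present in 21 of the 35 members (60%, using the first window of each gene) and in 43.1% of all genes. Among members that rose it was present in 6 of 10 (60%), and among those that fell in 5 of 11 (45.5%). The E-box CACGTG was present in 3 of 35 members (8.57%) and in 6.49% of all genes. The sterol response element was present in 2 of 35 members, PPARGC1B and PNPLA2 (5.71%), and in 0.875% of all genes. The peroxisome proliferator response element was found in 0 of 35 members and in 0.0183% of all genes. A match describes letters in the window and is not evidence of a bound site.

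Synthesis begins with ACLY, which splits citrate to acetyl-CoA, and ACSS2, which makes acetyl-CoA from acetate. ACLY was at 502, 519.9 and 509 CPM in shfirefly and 497, 496 and 479.5 CPM in shSIRT1. The groups did not overlap, but the difference did not pass the test (log2 fold change -0.06 ± 0.04, adjusted p = 0.18). ACSS2 averaged 43.7 ± 2.91 and 47.5 ± 2.02 CPM (SD, n = 3 each), with overlapping groups and an adjusted p of 0.076. The carboxylase ACACA, which makes malonyl-CoA, was at 89.7, 89.6 and 88.1 CPM and then at 111, 116 and 105 CPM. ACACA rose 1.24-fold (log2 fold change 0.31 ± 0.04, adjusted p = 2.4e-06), with every shSIRT1 library above every shfirefly library. Its counterpart at mitochondria, ACACB, averaged 19.1 ± 0.697 and 17.6 ± 1.86 CPM, with overlapping groups (adjusted p = 0.21).

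FASN, the synthase that makes palmitate (ENSG00000169710.9, chromosome 17, 82078333 to 82098332, minus strand, GRCh38), was at 196, 201 and 216 CPM in shfirefly and 317, 304 and 302 CPM in shSIRT1. The 2 groups were far apart, and FASN rose 1.51-fold (log2 fold change 0.59 ± 0.04, adjusted p = 9.1e-11). Of the 5 synthesis genes 2 rose, ACACA and FASN, and none fell. So 40% of them changed, beside 52.8% of all genes tested (26.8% rose and 26% fell). ACSS2 was also called higher with library totals alone and with an offset for GC content and length (log2 fold change 0.24 and 0.20). Per kilobase of exon, ACACA had 6.85 and 8.51 CPM in shfirefly and shSIRT1, and ACACB had 1.32 and 1.21.

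Desaturation and elongation gave changes in opposite directions. SCD, the main desaturase that puts the first double bond into stearate (ENSG00000099194.6, chromosome 10, 100347124 to 100364834, plus strand), was at 2458, 2544 and 2238 CPM in shfirefly and 1578, 1483 and 1441 CPM in shSIRT1. All 3 shSIRT1 libraries were below all shfirefly libraries. SCD fell, 1.61-fold lower (log2 fold change -0.69 ± 0.05, adjusted p = 2.4e-09). SCD had the highest level per length of the 39 genes in both groups, with 450.1 CPM per kilobase in shfirefly and 279.9 in shSIRT1. The related SCD5 averaged 81.5 ± 5.27 and 70.8 ± 0.644 CPM and fell too (log2 fold change -0.20 ± 0.05, adjusted p = 0.0011), a call lost with library totals alone (adjusted p = 0.13).

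ELOVL6, which lengthens palmitate to stearate (ENSG00000170522.9, chromosome 4, 110045846 to 110199199, minus strand), was at 30.1, 27.9 and 32.1 CPM and then at 55, 56.5 and 56.4 CPM. The groups were well apart, and ELOVL6 rose 1.86-fold (log2 fold change 0.90 ± 0.06, adjusted p = 2.1e-11). ELOVL5, which acts on polyunsaturated chains, rose 1.17-fold (adjusted p = 2.3e-05), from 150.4 ± 3.12 to 177 ± 4.12 CPM. ELOVL1, which acts on very long chains, averaged 167 ± 2.37 and 165 ± 2.44 CPM (adjusted p = 0.7), and was called higher with library totals alone (log2 fold change 0.10, adjusted p = 0.016).

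The FADS cluster on chromosome 11 holds the desaturases of polyunsaturated fatty acids. FADS2 was at 54.4, 54.4 and 55.5 CPM and then 46.1, 46.1 and 44.8 CPM, and it fell (log2 fold change -0.26 ± 0.05, adjusted p = 8e-05). FADS3 fell as well (log2 fold change -0.14 ± 0.04, adjusted p = 0.0064), a call lost with library totals alone (adjusted p = 0.73) and with the GC and length offset (0.62). FADS1 averaged 169.9 ± 2.48 and 178 ± 8.91 CPM and did not pass the test (adjusted p = 0.15), but it was called higher under both of those settings (log2 fold change 0.19 and 0.17). The first RefSeq starts of FADS1 and FADS2 lie 800 bases apart, and the genes overlap on opposite strands in GENCODE 29. Reads of one could be counted for the other if the counting ignored strand. FADS2 also overlaps FEN1 on its own strand there, which stranded counting would not tell apart by strand. Whether reads were shared was not tested.

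**Figure D2:**
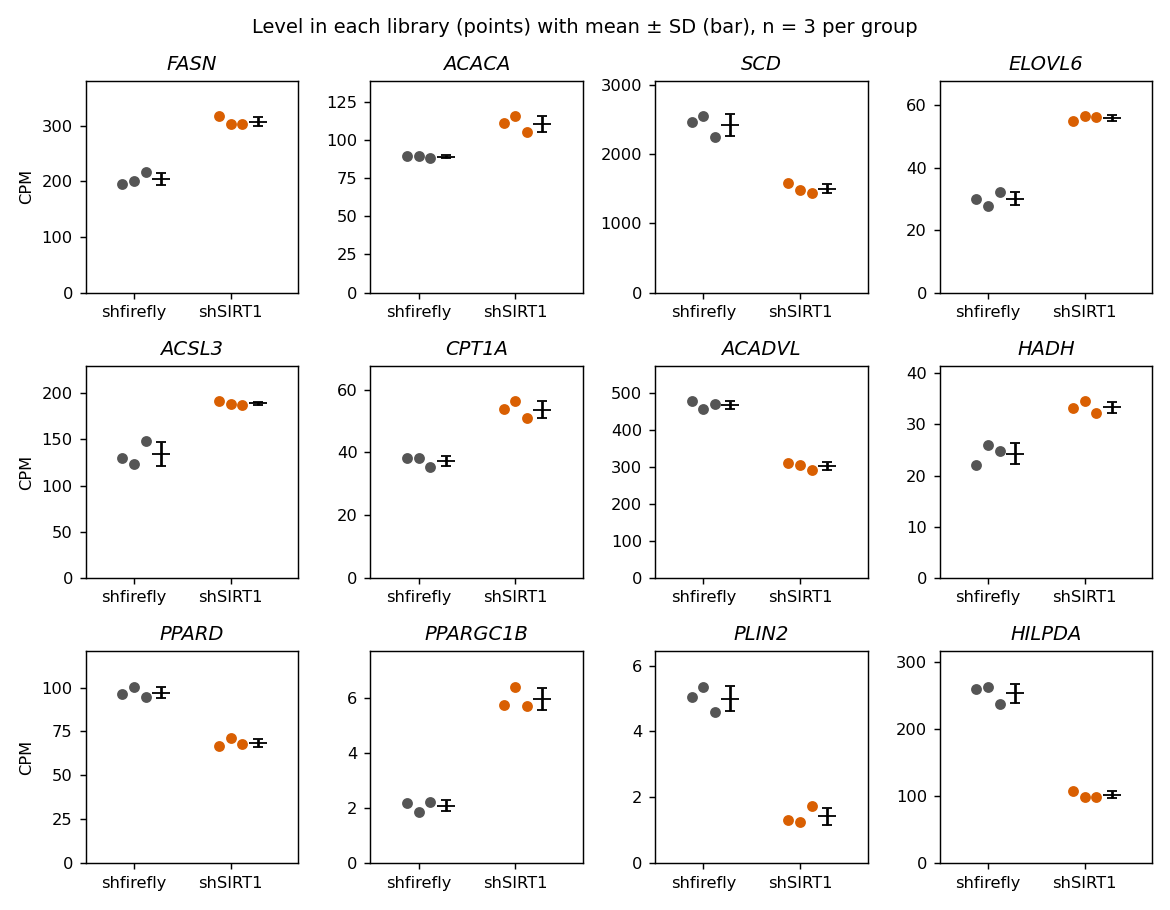
CPM in each library (points, axes from 0) with mean ± SD (bars, n = 3 per group) for 12 of the members. The groups do not overlap in any of the 12, with SCD, ACADVL, PPARD, PLIN2 and HILPDA lower in shSIRT1 and the other genes higher. These 12 were picked for display and do not stand for the members in general. Among all 39 members, the groups do not overlap for 28 (71.8%), beside 59.7% of all genes tested.

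Acyl-CoA synthetases activate fatty acids for every later use. ACSL3, found on lipid droplets and the endoplasmic reticulum, was at 130.2, 123 and 148 CPM in shfirefly and 191, 189 and 188 CPM in shSIRT1. It rose 1.41-fold (log2 fold change 0.50 ± 0.05, adjusted p = 1.7e-06), with no overlap between groups. ACSL4, which prefers arachidonate, was at 97.9, 99 and 107 CPM and then at 137, 137 and 138 CPM. ACSL4 rose 1.35-fold (adjusted p = 1.5e-08), again with no overlap. ACSL1 averaged 25.6 ± 1.98 and 26.2 ± 1.74 CPM (adjusted p = 0.67).

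The carnitine shuttle carries acyl groups into mitochondria. CPT1A, its rate-limiting enzyme, was at 38.1, 38.2 and 35.3 CPM and then at 53.9, 56.3 and 50.9 CPM. The groups did not overlap, and CPT1A rose 1.45-fold (log2 fold change 0.53 ± 0.06, adjusted p = 4.3e-08). CPT2, which re-forms acyl-CoA inside the mitochondrion, averaged 19.8 ± 1.53 and 21.5 ± 0.0567 CPM and did not pass (adjusted p = 0.16). The carrier SLC25A20 averaged 10.4 ± 1.61 and 11.5 ± 0.727 CPM (adjusted p = 0.24). CPT1C, the brain form, had 15, 15 and 22 reads and 30, 16 and 12 reads, too few to rank the groups (adjusted p = 0.73). CPT1A alone of the 4 changed (25%, beside 52.8% of all genes tested). CPT2 and SLC25A20 were also called higher with library totals alone (log2 fold change 0.24 and 0.27).

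Beta-oxidation enzymes moved apart from one another. ACADVL, the first step for very long chains (ENSG00000072778.20, chromosome 17, 7217125 to 7225273, plus strand), was at 478, 456 and 472 CPM in shfirefly and 312, 305 and 292 CPM in shSIRT1. All shSIRT1 libraries were lower, and ACADVL fell 1.55-fold (log2 fold change -0.63 ± 0.04, adjusted p = 8e-12). HADH, which oxidises shorter hydroxyacyl-CoA, was at 22, 26 and 24.8 CPM and then 33.3, 34.5 and 32.2 CPM. HADH rose 1.37-fold (log2 fold change 0.46 ± 0.07, adjusted p = 5.1e-06), with every shSIRT1 library above every shfirefly library. The hydratase ECHS1 rose from 83.7 ± 4.88 to 95.5 ± 1.91 CPM (log2 fold change 0.19 ± 0.05, adjusted p = 0.0013), and the thiolase ACAA2 fell from 72.1 ± 2.83 to 64.2 ± 1.53 CPM (log2 fold change -0.17 ± 0.05, adjusted p = 0.0046, and 0.42 with library totals alone). ACADM and ACADS, for medium and short chains, did not pass (adjusted p = 0.25 and 0.11).

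HADHA and HADHB encode the 2 subunits of the trifunctional protein. HADHA was at 219, 218 and 208 CPM and then at 214, 215 and 210.3 CPM, with overlapping groups (log2 fold change -0.01 ± 0.04, adjusted p = 0.8), and was called higher with library totals alone (log2 fold change 0.11, adjusted p = 0.0092). HADHB was at 94.9, 94 and 89.4 CPM and then at 76.3, 79.3 and 76.5 CPM, and it fell (log2 fold change -0.26 ± 0.04, adjusted p = 2.4e-05). The ratio of HADHB to HADHA in CPM was 0.434, 0.430 and 0.430 in shfirefly and 0.356, 0.369 and 0.364 in shSIRT1. The 2 RefSeq starts lie 307 bases apart on opposite strands and the genes overlap in GENCODE 29, so unstranded counting could mix their reads. Ratios between members were computed for 7 pairs picked after values were seen, and the exact permutation p of each was 0.1, the smallest that 3 against 3 can give (0.1 after adjustment over the 7).

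The PPAR receptors switch on oxidation genes, with the coactivators PPARGC1A and PPARGC1B. PPARGC1B (ENSG00000155846.17, chromosome 5, 149730298 to 149855022, plus strand) was at 2.18, 1.85 and 2.23 CPM in shfirefly and 5.74, 6.43 and 5.73 CPM in shSIRT1. All 3 shSIRT1 libraries were above, and PPARGC1B rose 2.85-fold (log2 fold change 1.51 ± 0.15, adjusted p = 1.7e-08). PPARGC1A was at 4.27, 3.55 and 3.81 CPM and then 3.39, 2.97 and 2.79 CPM, with no overlap but an adjusted p of 0.06. The ratio of PPARGC1B to PPARGC1A was 0.512, 0.521 and 0.585 in shfirefly and 1.69, 2.17 and 2.06 in shSIRT1, so the order of the 2 coactivators was different in each group. PPARD fell from 97.2 ± 3.12 to 68.5 ± 2.29 CPM (log2 fold change -0.50 ± 0.04, adjusted p = 4.1e-09), and PPARA fell from 53.0 ± 2.28 to 43.0 ± 1.99 CPM (log2 fold change -0.30 ± 0.05, adjusted p = 5.7e-05).

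Droplet genes held the 2 largest falls among the 39. HILPDA, a hypoxia-induced inhibitor of the lipase PNPLA2 (ENSG00000135245.10, chromosome 7, 128455849 to 128458418, plus strand), was at 259.5, 263 and 237 CPM in shfirefly and 108, 98.8 and 98.8 CPM in shSIRT1. Every shSIRT1 library was below every shfirefly library. HILPDA fell 2.49-fold (log2 fold change -1.32 ± 0.05, adjusted p = 1.6e-14) and went from rank 2 to rank 7 among the members in level per length. PLIN2, a coat protein of lipid droplets (ENSG00000147872.10, chromosome 9, 19108375 to 19149290, minus strand), had 155, 145 and 142 reads in shfirefly and 40, 38 and 45 reads in shSIRT1, or 5.05, 5.36 and 4.58 CPM and 1.3, 1.24 and 1.72 CPM. PLIN2 fell 3.53-fold (log2 fold change -1.82 ± 0.17, adjusted p = 1.1e-08), and its groups did not overlap. PLIN3, another coat protein, averaged 317 ± 5.53 and 302 ± 5.79 CPM and did not pass (adjusted p = 0.12). Per kilobase of exon PLIN3 had 113 CPM in shfirefly, where PLIN2 had 0.983.

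The lipase PNPLA2 was at 35.3, 35 and 34.3 CPM and then at 32.5, 32.4 and 30 CPM, with a small fall (log2 fold change -0.14 ± 0.06, adjusted p = 0.043) that 10 of 15 other settings did not call. The ratio of HILPDA to PNPLA2 in CPM was 7.34, 7.51 and 6.91 in shfirefly and 3.31, 3.05 and 3.30 in shSIRT1. This pair was picked after values were seen, and its difference largely restates the fall of HILPDA. LPIN1, a phosphatidate phosphatase, rose from 62.2 ± 2.39 to 77.8 ± 2.10 CPM (log2 fold change 0.32 ± 0.05, adjusted p = 4.1e-06). DGAT2, an enzyme of the last step of triglyceride synthesis, rose from 3.48 ± 0.162 to 4.61 ± 0.374 CPM (log2 fold change 0.40 ± 0.14, adjusted p = 0.018). DGAT1 averaged 14.5 ± 0.748 and 13.0 ± 0.971 CPM and did not pass (adjusted p = 0.14). The call for DGAT2 was lost with DESeq2 (adjusted p = 0.083) and without shfirefly replicate 1, shSIRT1 replicate 2, shSIRT1 replicate 3 or both libraries numbered 3.

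**Figure D3:**
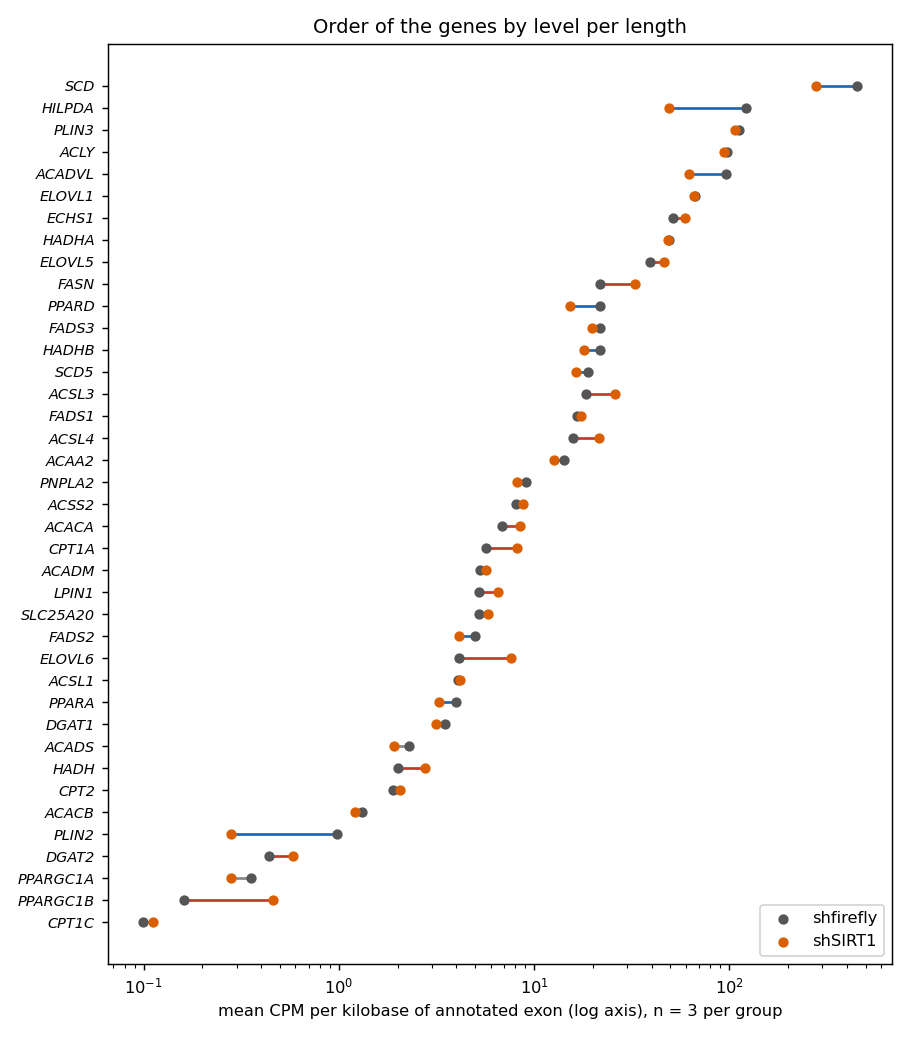
Mean CPM per kilobase of GENCODE 29 exon union for the 39 members on a log axis, with grey points for shfirefly (n = 3), orange points for shSIRT1 (n = 3) and a line joining them, in order of the shfirefly level. SCD lies highest in both groups, at 450.1 and 279.9.

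Summed over the 39 genes, the members took 6036 to 6394 CPM in shfirefly and 5078 to 5323 CPM in shSIRT1, and SCD alone accounted for 2238 to 2544 and 1441 to 1578 CPM of these. The ratio of FASN to SCD was 0.0796, 0.0792 and 0.0966 in shfirefly and 0.201, 0.205 and 0.210 in shSIRT1. Scaling by library totals alone raised the fold change of every member, as the plot of fold change by scaling shows. The median transcript GC content was 49.8% for members that rose, 51.2% for those that fell, 54.3% for those not called and 49.6% for all genes tested.

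**Figure D4:**
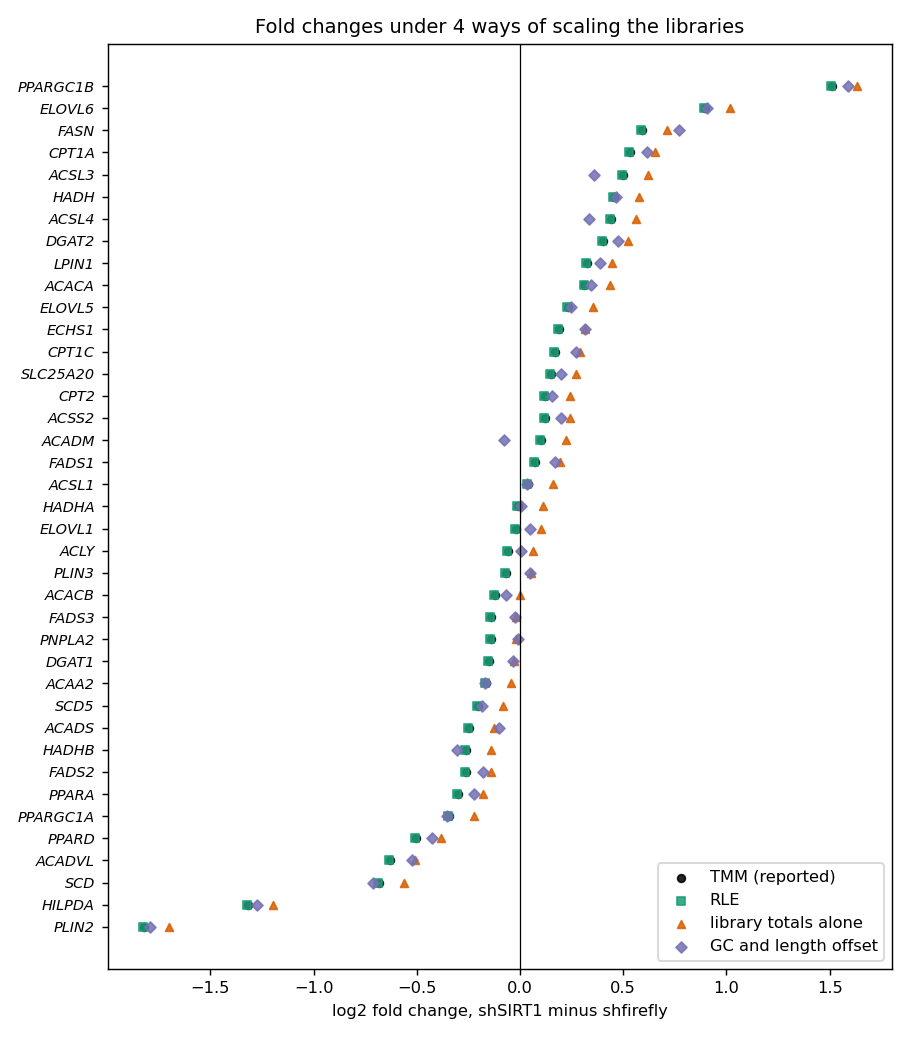
Log2 fold change of the 39 members under TMM scaling (black, mostly behind the RLE squares), RLE scaling, library totals alone and an offset for GC content and length. Library totals alone moved the members' median from -0.01 to 0.11, with PLIN2 and HILPDA lowest and PPARGC1B highest in all 4.

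Other genes of the same pathways were taken from 7 lists holding 134 genes, of which 110 were tested. Of these 32 rose, 23 fell and 55 did not pass, and the median log2 fold change of the tested genes was 0.01. So 50% changed, beside 52.8% of all genes tested, a share near the background. By list, 38.9% to 66.7% of the tested genes changed. The list counts that follow stand beside 26.8% of all genes tested that rose and 26% that fell. In the list of synthesis and its control, 3 of 18 tested genes rose and 4 fell (6 and 4 with library totals alone). INSIG1, which holds SREBP in the endoplasmic reticulum, was at 588, 646 and 586 CPM and then 333, 308 and 315 CPM, and fell 1.90-fold (adjusted p = 4.3e-13). INSIG2 fell 1.71-fold (adjusted p = 3.9e-12), while the mitochondrial synthesis genes MCAT and CBR4 rose 1.34-fold and 1.28-fold (adjusted p = 0.0037 and 0.0013).

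Of 10 tested genes of elongation and desaturation 4 rose and 1 fell, against 2 and 3 with the GC and length offset and 2 and 1 with DESeq2. The dehydratases HACD3 and HACD2 rose 1.43-fold and 1.35-fold (adjusted p = 1.8e-10 and 1.3e-08), and CYB5R3, which passes electrons to desaturases, fell 1.30-fold (adjusted p = 1.3e-08). Of 15 tested genes of uptake, binding and activation 5 rose and 5 fell. The transporter SLC27A4 rose 1.79-fold (adjusted p = 5.8e-09) and the binding protein FABP5 rose 1.77-fold (adjusted p = 1.4e-05). SLC27A1 fell 1.90-fold (adjusted p = 6e-08), and so did the receptor VLDLR, 1.65-fold lower (adjusted p = 2e-11).

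Of 17 tested genes of mitochondrial oxidation 5 rose and 3 fell (3 and 3 with DESeq2, 7 and 2 with library totals alone). ACADSB and HSD17B10, both also of branched amino acid breakdown, rose 1.42-fold and 1.42-fold (adjusted p = 1.3e-06 and 8e-07). DECR1, an enzyme for unsaturated chains, fell 1.28-fold (adjusted p = 4.7e-05). Of 15 tested genes in the peroxisomal list 6 rose and 1, ABCD4, fell (5 and 2 with the GC and length offset). ABCD3, a fatty acyl importer, was 1.39-fold higher (adjusted p = 9.2e-09).

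Of 21 tested triglyceride and droplet genes 5 rose and 6 fell, against 9 and 4 with library totals alone. SOAT1, which makes cholesterol esters, rose 1.54-fold (adjusted p = 4e-11), and GPAM, the first step of glycerolipid synthesis, rose 1.39-fold (adjusted p = 1.2e-05). AGPAT4 and LPIN2 fell 1.41-fold and 1.38-fold (adjusted p = 3.9e-06 and 1.4e-06). Of 14 other regulators of oxidation 4 rose and 3 fell, against 9 and 2 with library totals alone. Among them were NRF1 (1.36-fold higher, adjusted p = 3.9e-05), TFAM (1.31-fold higher, adjusted p = 1.1e-05), the AMPK subunit PRKAB2 (1.32-fold lower, adjusted p = 1.5e-06) and RXRB (1.28-fold lower, adjusted p = 0.0014). From the peroxisomal list, ABCD4, whose place in fatty-acid oxidation was not examined here, fell 1.24-fold (adjusted p = 0.00034). CROT, of the same list, rose 1.30-fold (adjusted p = 0.0024) but did not pass with a correction for GC content and length.

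**Figure D5:**
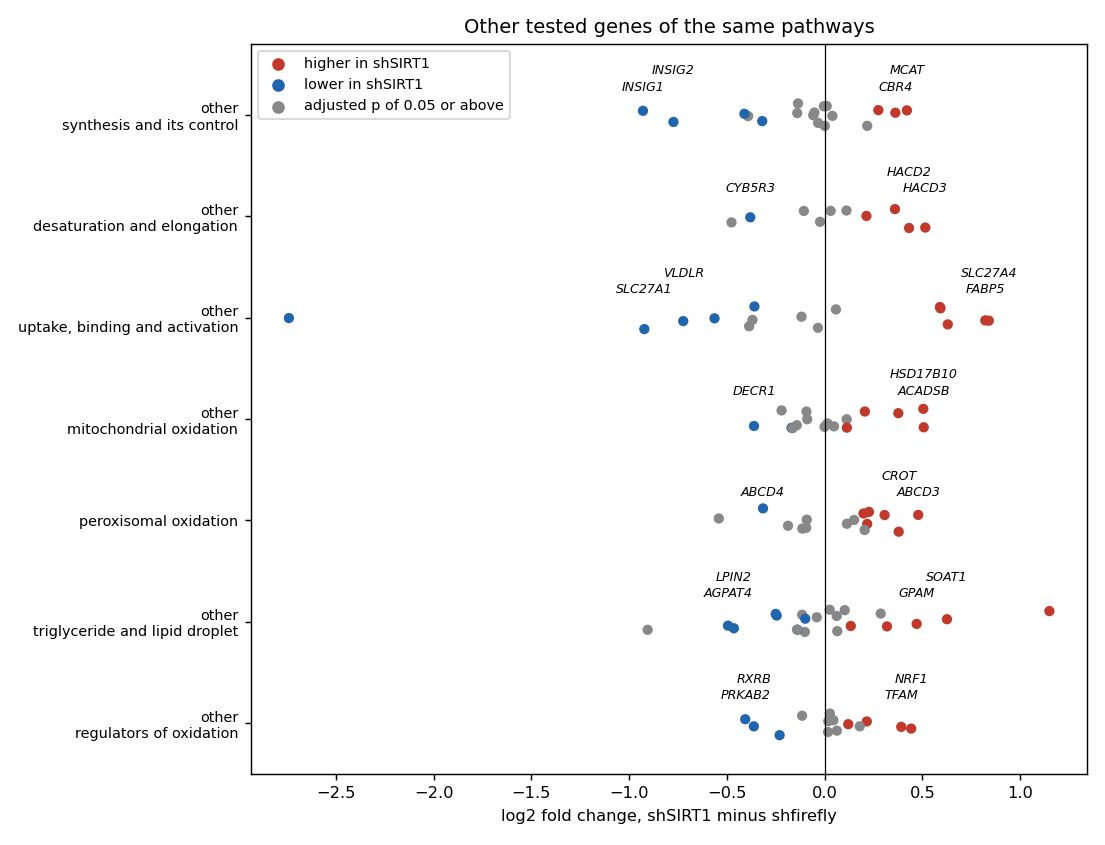
Log2 fold change of the tested genes in the 7 lists of other pathway genes (1 gene not shown), shSIRT1 over shfirefly, with red for genes that rose, blue for genes that fell and grey for the rest (vertical scatter has no meaning). Every list holds genes of both directions, for example SLC27A4 at 0.84 and SLC27A1 at -0.92.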

How the data were processed

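Gene-level RNA-seq counts of 6 samples were used. TRI reagent was used for the RNA and a TruSeq Stranded mRNA kit for the libraries, per the labels' protocols. The tools listed are Trimmomatic, STAR and DESeq2 on GRCh38, per the submitters' processing notes. Tool versions, read counter, gene annotation and strand setting are not given in the sources used. The deposited counts are raw whole numbers per gene, per the file headers. The authors' normalized counts, rounded to whole numbers and treated as a score, entered no test. The authors' comparison gives a fold change (ratio), a log2 fold change and p-values, per the file headers; 37 of 39 members had the same call there as here, and it called 11 higher and 11 lower.

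Replicates differed by more than sampling noise (chi-square per gene 2.81 to 6.10 within groups), so each library counted once. The highest values, 5.88 and 6.10, both involved shfirefly replicate 3, against 2.81 between shfirefly replicates 1 and 2. Replicate 3 was also nearer the shSIRT1 libraries (58 to 67.6) than shfirefly replicates 1 and 2 were (75.8 to 91). The cause was not tested. Genes passing edgeR 4.0.16 filterByExpr (16591) were TMM-scaled (factors 0.948 to 0.970 in shfirefly, 1.04 to 1.05 in shSIRT1) and tested with the robust quasi-likelihood F test on group in R 4.3.3, with Benjamini-Hochberg adjustment over all genes tested and a threshold of 0.05. Standard errors are the absolute log2 fold change over the square root of F. A count of 0 allows up to 3 counts, or 0.0968 to 0.115 CPM per library, for counting error only. P-values rest on the spread of replicates the design text calls biological. Positions, exon lengths and overlaps came from GENCODE 29 on GRCh38 (39 of 39 members matched); promoters came from RefSeq. Members could share reads with overlapping genes, which 19 have on their own strand and 22 on the opposite one.

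The members, the lists and the tests were chosen with earlier results of these data known. Named genes are all members, SIRT1, EPAS1 and, from each list of other pathway genes, up to 2 rising and 2 falling changed genes of at least 5 CPM with the largest log2 fold change. Of the genes so chosen 1 is counted in its list but not reported here. Alternatives were other scaling (RLE, library totals, an offset for GC content and length by splines with 5 degrees of freedom), DESeq2 1.42.0, other filters, no robust estimation, a replicate block and leaving out libraries. The code was tested on simulated data.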

Additional observations from a re-analysis of the deposited data

How the results depend on the processing

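Of the 24 changed members, 19 kept their call in all 15 alternative settings; the exceptions were SCD5, FADS3, ACAA2, DGAT2 and PNPLA2. Of the 15 members not called, 6 passed the test in no setting that tested them: ACACB and DGAT1, which also kept their sign, and ACLY, ACSL1, CPT1C and PLIN3, which did not. Library totals alone gave 19 members higher and a member median of 0.109, and the GC and length offset gave a median of 0.036. Leaving out 1 library at a time gave medians of -0.040 to -0.001, the lowest without shfirefly replicate 3. Without both libraries numbered 3, 12 members were higher and 11 lower. DESeq2 called 3895 genes higher and 3673 lower, where edgeR called 4449 and 4311.

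Members that were not called changed sign as follows. With library totals alone, the log2 fold change was 0.065 for ACLY, 0.102 for ELOVL1, 0.109 for HADHA and 0.054 for PLIN3. With the GC and length offset it was 0.004 for ACLY, 0.046 for ELOVL1, 0.007 for HADHA, 0.048 for PLIN3 and -0.080 for ACADM. Leaving out 1 library at a time gave ACSL1 values of -0.012 (without shSIRT1 replicate 1) to 0.103, with -0.009 without shfirefly replicate 1, and CPT1C values of -0.249 (without shSIRT1 replicate 1) to 0.357. The cause was not tested. DGAT2 (adjusted p = 0.003 to 0.083 over the settings) lost its call without shfirefly replicate 1, shSIRT1 replicate 2 or shSIRT1 replicate 3, and PNPLA2 (0.028 to 0.91) without any 1 library other than shfirefly replicate 3. ACSS2 gained a call without shfirefly replicate 2 or shSIRT1 replicate 3, FADS1 without shSIRT1 replicate 3, ACADS without shfirefly replicate 3, and ACADM and PPARGC1A without shSIRT1 replicate 1. CPT1C was too low to be tested under the stricter filter of 1 CPM.

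Same-numbered libraries had correlations of their deviations from the group mean of -0.010, -0.067 and 0.132, and differently numbered ones of -0.154 to 0.171. Deviations within a group of 3 sum to 0, so these values are tied to each other. They cannot show whether the samples were paired. With the replicate block 13 members were higher and 12 lower, ACSS2 being called (log2 fold change 0.12, adjusted p = 0.039), and 4711 genes were higher and 4465 lower. Depth limits CPT1C, with 110 reads in all libraries, and leaves its direction undetermined.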

Other observations

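Genes named here were chosen after their values were seen. SREBF1 and SREBF2, the transcription factors that drive lipid synthesis genes, had log2 fold changes of -0.14 ± 0.06 and -0.32 ± 0.04 (SE, n = 3 per group, edgeR quasi-likelihood test, adjusted p = 0.066 and 8.4e-07), and only SREBF2 fell. CIDEB, a droplet protein, had 39, 17 and 25 reads in shfirefly and 60, 52 and 64 reads in shSIRT1, and it rose (adjusted p = 0.00086). SLC27A2 had 13, 12 and 11 reads and 3, 0 and 2 reads, and it fell (adjusted p = 0.0012). PLIN1, the droplet coat protein of fat cells, had 18, 10 and 18 reads and 8, 10 and 6 reads and did not pass (adjusted p = 0.075).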
